A study of Drosophila melanogaster with 22 samples.

Results

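The cultured Drosophila cells compared here had been given double-stranded RNA (dsRNA) against Rrp6, a nuclease of the nuclear RNA exosome, or against Rrp47, the protein that binds it. The arrays were chosen by their titles, 2 arrays labelled as depleted of Rrp6 and 2 labelled as depleted of Rrp47, which makes 4 of the 22 arrays in the series. All 22 arrays held S2 cells, a line grown from embryos that has features of blood cells (hemocytes). In every group dsRNA was added at 30 µg/ml on days 0, 1 and 3, and RNA was taken on day 5 from cells kept at 27 °C. The 2 GFP arrays came from cells given dsRNA against GFP, a jellyfish protein whose gene flies lack. The other 16 arrays were labelled as depleted of 7 further exosome subunits, with 4 arrays for Rrp4 and 2 each for Csl4, Dis3, Mtr3, Rrp40, Rrp46 and Ski6. GFP arrays are not part of the Rrp6 and Rrp47 contrast and are given only to place its values. Knockdown by dsRNA lowers a transcript without removing the gene, and the labels give no protein level. Both arrays of each label are titled as biological replicates, but nothing in the sources used here says whether they were separate cultures, so the p-values measure the spread between these arrays.

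The exosome is a barrel of subunits that degrades or trims RNA from its 3′ end. Rrp6 is its nuclear exonuclease, known from yeast for trimming ribosomal and small nucleolar RNA precursors and for removing faulty nuclear transcripts, and Dis3 is its other exonuclease. Rrp47 binds the end of Rrp6, and in yeast the 2 proteins stabilise each other. The comparison therefore asks how far the transcripts of cells given dsRNA against one partner differ from those of cells given dsRNA against the other.

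Values are log2 probe set signals after quantile normalization, and a difference is the mean of the Rrp6-labelled arrays minus the mean of the Rrp47-labelled arrays, with its standard error (SE) from the fit to all 22 arrays. Calls are probe sets whose p, adjusted by the Benjamini-Hochberg method within the contrast, was under 0.05. An exact permutation test of 2 arrays against 2 cannot give a p below 0.333, so every call rests on the spread that limma pools over groups and probe sets. The 2 groups were not equally even: arrays 1 and 2 differed by a median of 0.435 between the Rrp6-labelled arrays and by 0.147 between the Rrp47-labelled arrays. The correlation of log2 signal was 0.940 within the Rrp6 label, 0.980 within the Rrp47 label and 0.906 to 0.926 between them. The control probes also differed. The mean signal of the 18S ribosomal RNA controls was 13.17 and 13.53 on the Rrp6-labelled arrays against 10.85 and 10.17 on the Rrp47-labelled arrays. Signal of the added poly-A transcripts over the hybridization controls was 0.67 and 0.94 against 2.08 and 2.00. The 3′ over 5′ signal of the eIF-4a, GAPDH and actin controls, a sign of RNA or labelling quality, went both ways. It was 1.36 and 1.08 against 0.90 and 0.91 for eIF-4a, and 0.56 and 0.63 against 0.48 and 0.32 for GAPDH. For actin it was lower under the Rrp6 label, at 0.17 and 0.10 against 0.31 and 0.23. These values move with the labels in every result that follows. The 18S signal was tried as a covariate, which left 598 calls of 1820, and the part of the other control values was not tested.

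Each targeted gene was looked at first, as a check of the labels. The Rrp6 transcript was 6.55 and 7.47 on the arrays labelled Rrp6, against 7.64 and 7.52 on those labelled Rrp47, 7.71 and 8.13 with GFP, and group means of 7.43 to 8.41 in the 7 other depletions. Both Rrp6-labelled arrays were below both Rrp47-labelled arrays, but array 2 only by a margin smaller than the spread within the Rrp47 label. The difference of -0.57 ± 0.27 (SE, n = 2 and 2) did not pass the test (adjusted p = 0.157). It was -1.03 (adjusted p = 0.0127) without Rrp6-labelled array 2 and -0.11 without array 1, so array 1 carried it. Against the mean of the 7 other depletions the Rrp6 transcript was lower by -0.92 (adjusted p = 0.0031).

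The Rrp47 transcript went against its label. It was 11.83 and 10.82 on the arrays labelled Rrp47 and 9.19 and 9.04 on those labelled Rrp6. The GFP arrays gave 9.69 and 9.59, and the group means of the 7 other depletions ran from 9.004 to 9.70. Both arrays labelled as depleted of Rrp47 thus had the highest Rrp47 signals of the 4, and both exceeded the GFP arrays. The difference was -2.21 ± 0.22 (adjusted p = 2.6e-06), a 4.64-fold higher signal under the Rrp47 label. Rrp47 was not alone in this: the transcripts of Csl4, Rrp40 and Ski6 were also highest on the arrays labelled for them, with means of 10.91, 11.12 and 10.44 against 8.24, 9.27 and 8.04 with GFP. Where the probes lie relative to the dsRNA is not given in the sources used here, so whether they read cellular transcript, dsRNA or both was not tested. For this reason the arrays are called Rrp6-labelled and Rrp47-labelled throughout, and no direction below is read as the effect of losing Rrp47.

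**Figure D1:**
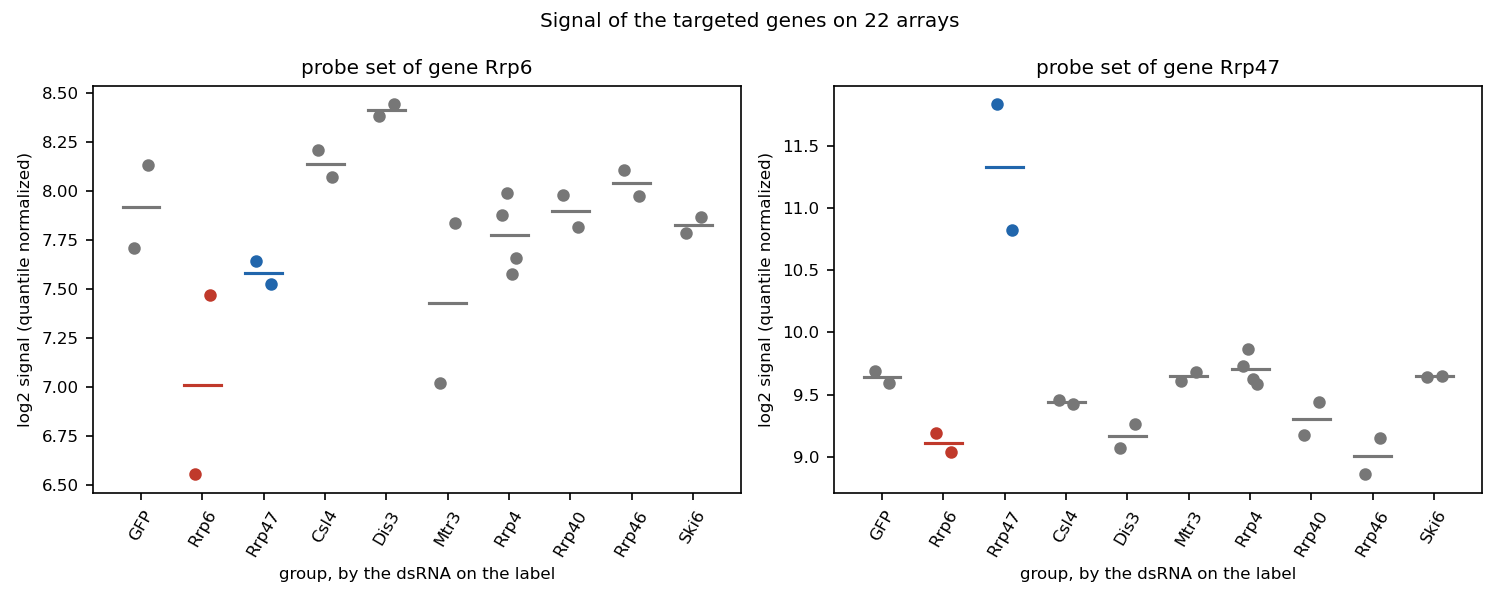
Log2 signal of the Rrp6 gene and the Rrp47 gene on each of the 22 arrays, by group, each point being 1 array and each line a group mean. Rrp6 is lowest on Rrp6-labelled array 1 (6.55), while Rrp47 is highest on the arrays labelled Rrp47 (11.83 and 10.82).

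The other 9 exosome genes measured here hardly separated the 2 labels. Among them 1 was called, Rrp40, which encodes a cap subunit: it was 9.33 and 10.27 on the Rrp6-labelled arrays and 8.999 and 8.68 on the Rrp47-labelled arrays, with no overlap. Its difference was 0.96 ± 0.23 (adjusted p = 0.0077). The call was lost without Rrp6-labelled array 2 (0.50, adjusted p = 0.0922) and without Rrp47-labelled array 2 (0.80, adjusted p = 0.0903). Rrp4 and Csl4 of the cap differed by 0.53 and 0.18, and the ring subunits Rrp46, Rrp45, Rrp42, Ski6 and Mtr3 by 0.37, 0.25, 0.06, 0.32 and 0.24. The exonuclease Dis3 differed by 0.06. None of these 8 was called, and all 8 changed sign when the deposited values were left unnormalized.

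Of 9385 probe sets tested, 1820 were called between the Rrp6-labelled and the Rrp47-labelled arrays, which is 19.4%. Signal was higher under the Rrp6 label for 860 of them (9.16%) and lower for 960 (10.2%). The unadjusted p was under 0.05 for 3015. Among the higher calls 397 reached 2-fold, 95 reached 4-fold and 22 reached 8-fold. Among the lower calls 469 reached 2-fold, 180 reached 4-fold and 59 reached 8-fold, so the furthest differences lay mostly toward higher signal in the Rrp47-labelled arrays. Both Rrp6-labelled arrays stood above both Rrp47-labelled arrays for 2520 probe sets (26.9%) and below both for 2612 (27.8%). Of the called probe sets, 1 had arrays that overlapped.

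How many probe sets were called depended on single arrays and on the scaling. There were 2261 calls without Rrp6-labelled array 2 and 1485 without array 1, while leaving out Rrp47-labelled array 1 or 2 gave 967 and 1015. Leaving out an array also leaves fewer arrays and a larger SE, so a lost call is given below with its difference. Centring each array on its median gave 367 higher and 1378 lower, where the median of all probe sets stood at -0.20. The deposited values without normalization gave 138 higher and 4946 lower around a median of -0.76, so small differences below are relative to the quantile-normalized distribution.

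**Figure D2:**
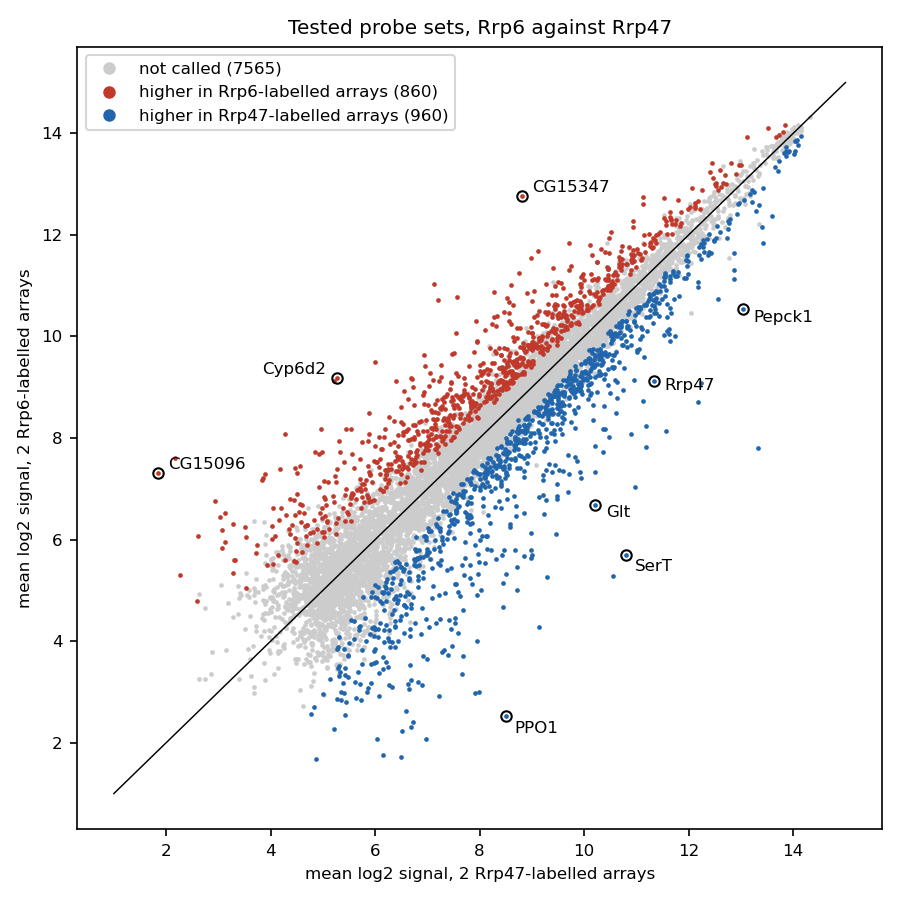
Mean log2 signal of the 2 Rrp47-labelled arrays (horizontal) against the mean of the 2 Rrp6-labelled arrays (vertical) for the tested probe sets, with the called ones coloured by direction. The 860 higher and 960 lower calls flank the diagonal, and PPO1, at 8.69 and 8.32 under the Rrp47 label, lies far to the lower right.

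The 14 genes furthest higher in the Rrp47-labelled arrays differed by 4.02 to 5.97 in size. PPO1, the zymogen of a melanin-forming enzyme found in crystal cells, led. It was 2.30 and 2.75 on the Rrp6-labelled arrays and 8.69 and 8.32 on the Rrp47-labelled arrays. Both Rrp6-labelled arrays lay near the GFP arrays (3.09 and 2.76), and both Rrp47-labelled arrays lay within the group means of the 7 other depletions (6.60 to 8.93). The difference was -5.97 ± 0.29 (adjusted p = 5.9e-10), 62.9-fold.

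SerT, the transporter that takes serotonin back into cells, was 5.60 and 5.80 on the Rrp6-labelled arrays and 10.85 and 10.76 on the Rrp47-labelled arrays. The first pair lay just above GFP (5.46 and 5.57), and the second lay at the upper end of the other depletions (7.54 to 11.05). The difference was -5.10 ± 0.15 (adjusted p = 4.1e-13), which gave SerT the smallest SE of the 14. PKD, the fly protein kinase D, had the same arrangement, with 2.05 and 2.08 on the Rrp6-labelled arrays, 6.88 and 7.08 on the Rrp47-labelled arrays and 1.86 and 2.08 with GFP. Its difference was -4.92 ± 0.37 (adjusted p = 9.2e-08).

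A group of these genes encodes proteins with a trypsin-like protease fold. CG33462 was 6.22 and 4.35 on the Rrp6-labelled arrays and 10.75 and 10.36 on the Rrp47-labelled arrays, a difference of -5.27 ± 0.38 (adjusted p = 5.6e-08). CG4793 was 2.68 and 5.88 against 9.13 and 9.14 (-4.85 ± 0.74, adjusted p = 0.00018). In CG43336 (4.32 and 1.69 against 7.84 and 8.14) and CG3117 (2.76 and 1.69 against 6.43 and 6.59), array 2 of the Rrp6 label lay at the floor set for low signals. No Rrp6-labelled array of these genes reached a Rrp47-labelled one. That separation was a condition for picking them, so it is not a separate result.

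The other 7 had different functions or none given here. AdamTS-B, a secreted metalloprotease, was 2.92 and 3.80 against 7.26 and 8.06 (-4.30 ± 0.61). Cyp4ac2, a cytochrome P450 enzyme, was 2.73 and 1.88 against 6.62 and 6.75 (-4.38 ± 0.72). In vilya, a factor of meiotic recombination, both the Rrp47-labelled arrays (7.18 and 7.25) and the GFP arrays (5.68 and 5.89) stood above the Rrp6-labelled arrays (1.89 and 3.97). The same order held for dmGlut, a glutamate transporter gene, with 1.69 and 1.77 on the Rrp6-labelled arrays, 6.42 and 6.56 on the Rrp47-labelled arrays and 4.11 and 4.23 with GFP. Superdeath (5.52 and 5.01 against 9.35 and 9.23), Fie (1.83 and 1.69 against 5.99 and 6.31) and CG6357 (4.28 and 1.69 against 7.91 and 7.92) complete the 14. One Rrp6-labelled array was at the floor in 5 of the 14, so their size depends on the floor.

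The Rrp6-labelled mean was below all 7 other depletion means for all 14 of these genes, and the Rrp47-labelled mean was inside their range for 12 and above it for 2. Against the mean of the 7 other depletions, all 14 were called for Rrp6 and 3 for Rrp47, beside 26.8% and 21.2% of all probe sets. The genes were picked for their difference between the same Rrp6-labelled and Rrp47-labelled arrays, so these counts describe where each label lay and support nothing further. The Rrp6-labelled mean lay within 1 of the GFP mean for 7 of the 14.

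The 14 genes furthest higher in the Rrp6-labelled arrays differed by 3.20 to 5.48. CG15096 led, with 7.27 and 7.36 on the Rrp6-labelled arrays and 1.70 and 1.98 on the Rrp47-labelled arrays, just above the floor of 1.69. GFP arrays gave 7.27 and 8.38, close to the Rrp6 label, and the other depletions had means of 2.75 to 6.35. The difference was 5.48 ± 0.71 (adjusted p = 3.3e-05), 44.5-fold. Ance, an angiotensin-converting enzyme-like peptidase, was 10.60 and 10.96 against 7.53 and 7.62, with GFP again near the Rrp6 label (10.04 and 10.39). Its difference was 3.20 ± 0.27 (adjusted p = 3.7e-07).

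Other genes were higher under the Rrp6 label than in GFP cells as well. CG15347 was 13.02 and 12.49 on the Rrp6-labelled arrays, 8.85 and 8.77 on the Rrp47-labelled arrays and 10.56 and 9.89 with GFP. Its difference was 3.95 ± 0.28 (adjusted p = 5.6e-08), and all of the other depletion means (8.84 to 11.18) were below both Rrp6-labelled arrays. The P450 gene Cyp6d2 was 8.34 and 10.01 against 5.21 and 5.33, with GFP at 5.35 and 3.31 (3.90 ± 0.69, adjusted p = 0.00071). Obp28a, an odorant-binding protein, was 8.29 and 8.07 against 4.56 and 5.36, with GFP at 3.44 and 3.28 (3.22 ± 0.66). CG45263 was 10.79 and 10.64 against 7.38 and 7.02 (3.51 ± 0.21, adjusted p = 5e-09). In 2 further probe sets of CG45263 the difference was 2.28 and 3.92, and both were called.

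Among the rest were zye, a zona pellucida-domain protein (10.08 and 8.90 against 6.03 and 5.95), and tty, a tweety chloride channel (6.39 and 6.50 against 2.81 and 3.27). Gs2, a glutamine synthetase, was 7.62 and 6.97 against 4.66 and 3.13 (3.40 ± 0.51). Mf, the muscle protein myofilin, was 6.86 and 7.57 against 4.59 and 3.11 (3.36 ± 0.56). CG13196, CG12766 and CG11313 differed by 3.39, 3.34 and 3.44. In trio the arrays were far apart within each label (7.79 and 5.74 against 3.67 and 2.20). Its difference of 3.83 ± 0.94 was called (adjusted p = 0.0085) but not without Rrp6-labelled array 1 (2.80, adjusted p = 0.0994) or without Rrp47-labelled array 2 (3.09, adjusted p = 0.0998). The calls of the other 27 of the 28 leading genes held without each of the 4 arrays.

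For 13 of these 14 genes the Rrp6-labelled mean was above all 7 other depletion means, and for 9 the Rrp47-labelled mean was below all of them. Against the mean of the 7 others, 12 were called for Rrp6 and 8 for Rrp47, with the same limit of having been picked on these arrays. These comparisons share the arrays of the 7 other groups, so their values are set side by side only. With the 18S signal as a covariate, 23 of the 28 leading genes were called. Of those lost, trio (2.21, adjusted p = 0.357), CG11313 (1.89, adjusted p = 0.179) and CG12766 (2.25, adjusted p = 0.231) had smaller differences. In tty (3.21, adjusted p = 0.0534) and Obp28a (2.97, adjusted p = 0.0759) the difference was about as large as before.

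**Figure D3:**
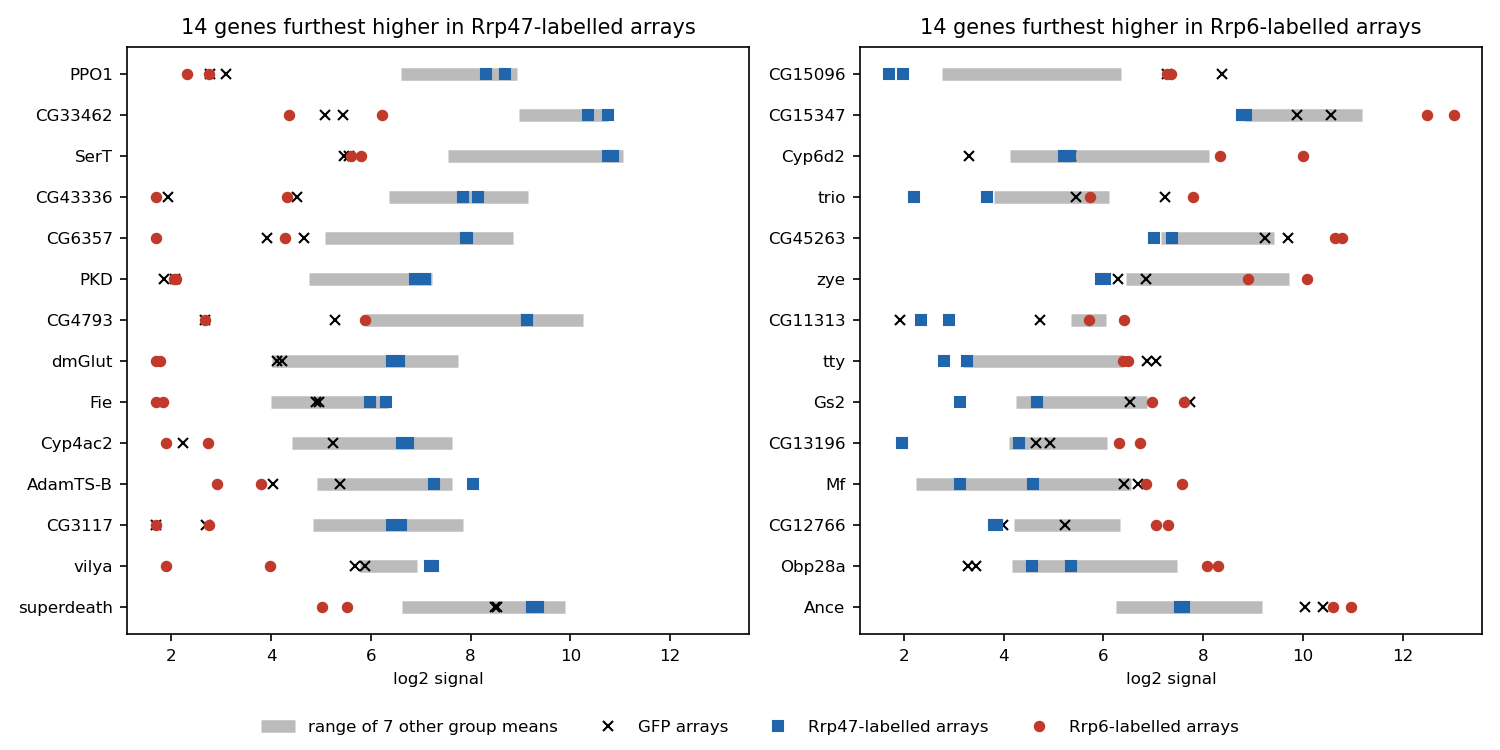
Log2 signal of the 14 genes furthest higher under the Rrp47 label (left) and the 14 furthest higher under the Rrp6 label (right), with 1 marker per array for the Rrp6-labelled, Rrp47-labelled and GFP groups and a grey bar from the lowest to the highest mean of the 7 other depletions. On the left the Rrp47-labelled arrays lie mostly on the grey bars and the Rrp6-labelled arrays to the left of them, as for PPO1 at 2.30 and 2.75.

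Single genes also varied within a label. The largest difference between the Rrp6-labelled arrays was in CrebB, a cAMP-responsive transcription factor, at 5.96 and at the floor of 1.69, with 4.64 and 5.79 under the Rrp47 label. The labels overlapped, and the difference of -1.39 ± 0.91 was not called (adjusted p = 0.31). The largest difference between the Rrp47-labelled arrays was in RapGAP1, an activator of Rap GTP hydrolysis, at 2.18 and 6.19, with 7.75 and 7.04 under the Rrp6 label. Its call (3.21 ± 0.82, adjusted p = 0.011) was lost without Rrp47-labelled array 1 (1.20, adjusted p = 0.205) and without Rrp6-labelled array 1 (2.85, adjusted p = 0.069).

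Genes were also grouped by function in lists. Counts below are of genes measured by a tested probe set, and over all 7222 such genes 686 were higher (9.5%) and 791 lower (11%) under the Rrp6 label, with a median difference of -0.03. The machinery of RNA decay and processing came first. Of 12 nuclear exosome cofactors 1 was called: Trf4-1, a noncanonical poly(A) polymerase that tags nuclear RNA for the exosome. It was 3.57 and 2.74 on the Rrp6-labelled arrays and 5.93 and 5.49 on the Rrp47-labelled arrays, where the other depletions had 5.14 to 6.09 and GFP 4.31 and 3.54. The arrays did not overlap, and the difference was -2.56 ± 0.55 (adjusted p = 0.0032).

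Of 15 genes for cytoplasmic decay from the 3′ end, 2 were higher and 1 lower under the Rrp6 label. HBS1, which rescues stalled ribosomes, was 10.32 and 10.46 against 9.36 and 9.42 (1.00 ± 0.17, adjusted p = 0.00066). Pop2, a deadenylase of the CCR4-NOT complex, was 11.02 and 10.40 against 9.83 and 9.89 (0.85 ± 0.20, adjusted p = 0.0061). Not3 of the same complex went the other way, at 9.32 and 8.62 against 9.78 and 9.69 (-0.76 ± 0.20, adjusted p = 0.014). Within 1 complex the called members thus lay in opposite directions. The Pop2 call was lost without Rrp6-labelled array 1 (0.54, adjusted p = 0.0921) or Rrp47-labelled array 1 (0.82, adjusted p = 0.0511). The Not3 call was lost without Rrp6-labelled array 2 (-0.41, adjusted p = 0.146) and, at an almost unmoved difference, without Rrp47-labelled array 1 (-0.72, adjusted p = 0.0949) or 2 (-0.80, adjusted p = 0.0581).

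Of 13 genes for decay from the 5′ end and nonsense-mediated decay, 1 was higher and 2 were lower. The 5′ exonuclease pcm differed by 0.44 ± 0.15, and the nonsense-mediated decay factors Upf3 and Upf2 by -0.85 ± 0.23 and -0.71 ± 0.18. Each of these calls was lost without 2 or 3 of the 4 arrays in turn. The pcm difference was 0.24 without Rrp6-labelled array 2 (adjusted p = 0.276), while without Rrp47-labelled array 1 or 2 it stayed at 0.46 and 0.42 (adjusted p = 0.138 and 0.17). The Upf3 difference was -0.42 without Rrp6-labelled array 1 (adjusted p = 0.212), while without Rrp47-labelled array 1 or 2 it stayed at -0.87 and -0.83 (adjusted p = 0.0725 and 0.0834). The Upf2 difference was -0.57 without Rrp6-labelled array 2 and -0.60 without Rrp47-labelled array 2 (adjusted p = 0.0622 and 0.103). Of 24 genes for 3′ end formation and termination 2 were higher and none lower. They were Pabp2, the nuclear poly(A)-binding protein (0.94 ± 0.22), and the Integrator subunit IntS6 (1.31 ± 0.33). Both calls were lost without Rrp6-labelled array 1, at 0.72 and 1.16 (adjusted p = 0.0666 and 0.0645). Pabp2 was also lost without Rrp47-labelled array 2 (0.86, adjusted p = 0.0586) and IntS6 without Rrp47-labelled array 1 (1.10, adjusted p = 0.107).

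Many genes for making ribosomes were higher under the Rrp6 label. Of 25 ribosome biogenesis genes 11 were higher and none lower, with a median of 0.50. eIF6, which holds new large subunits apart from small ones until they are mature, was 11.14 and 11.33 against 10.01 and 9.96, with GFP at 10.02 and 9.93. Both Rrp6-labelled arrays were above all group means of the other depletions (9.52 to 10.78), and the difference was 1.25 ± 0.16 (adjusted p = 2.5e-05). RIOK1, a kinase of small subunit maturation, was 7.85 and 7.42 against 6.65 and 6.29 (1.16 ± 0.23, adjusted p = 0.0017). Here GFP (7.43 and 7.59) lay with the Rrp6 label.

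Of 11 genes for small nucleolar ribonucleoproteins and the nucleolus, 2 were higher and none lower. Both, NHP2 (0.74 ± 0.14, adjusted p = 0.0013) and Nop60B (0.72 ± 0.15, adjusted p = 0.0023), belong to the particles that form pseudouridine. With the 18S covariate they differed by 0.50 and 0.51 and were not called (adjusted p = 0.132 and 0.158). None of the 11 was higher with that covariate or in the fit to the 4 arrays alone. In the deposited values none was higher and 6 were lower. The biogenesis count depended on the scaling more than on any array. Without each array in turn 6 to 9 of the 25 were higher, and with the 18S covariate 4 were higher. After median centring 5 were higher and 1 lower, and in the deposited values 1 was higher and 8 lower with a median of -0.23.

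Translation initiation factors went both ways, with 4 of 35 higher and 9 lower. The 9 lower ones were 8 subunits of eIF3, the large factor that assembles the small subunit with mRNA, and eIF4A. eIF3k was 11.85 and 12.04 on the Rrp6-labelled arrays and 12.67 and 12.78 on the Rrp47-labelled arrays (-0.78 ± 0.13, adjusted p = 0.00036), and eIF3l differed by -0.64 ± 0.14 (adjusted p = 0.0036). The Rrp6-labelled arrays of eIF3k lay near GFP (11.82 and 11.92). In the other direction eIF2D, which delivers tRNA without GTP, was 10.56 and 10.96 against 9.81 and 9.51 (1.10 ± 0.25, adjusted p = 0.0042). That call was lost without Rrp47-labelled array 2 (0.95, adjusted p = 0.0573). Without Rrp6-labelled array 1 the list had 4 lower genes, without Rrp47-labelled array 1 or 2 it had 3, and with the 18S covariate it had 1. The list's median moved little, from -0.12 to between -0.18 and -0.10.

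DNA replication genes were lower under the Rrp6 label, with 8 of 26 lower, 2 higher and a median of -0.55. PolA1, the catalytic subunit of DNA polymerase alpha, was 6.84 and 7.36 against 7.99 and 8.12 (-0.95 ± 0.20, adjusted p = 0.0033), with GFP lower still (6.22 and 6.55). RPA1, which coats single-stranded DNA, went the other way at 11.55 and 11.60 against 10.67 and 10.66 (0.91 ± 0.12, adjusted p = 3.2e-05). For the helicase subunit Mcm5 (7.43 and 8.92 against 9.24 and 9.30) and the loader Cdc6 (6.87 and 8.34 against 8.88 and 8.82), array 1 of the Rrp6 label was well below array 2.

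Leaving out either array of that uneven pair moved the replication list itself. Without Rrp6-labelled array 1, 1 replication gene was lower and the median was -0.15, while without array 2, 14 were lower and the median was -0.73. Without Rrp47-labelled array 1 or 2, 2 were lower in each case, but the median stayed at -0.50. With the 18S covariate none was lower, at a median of -0.45. The differences of Mcm5 and Cdc6 were -0.35 (adjusted p = 0.238) and -0.52 (adjusted p = 0.34) without Rrp6-labelled array 1. Without Rrp47-labelled array 1 or 2 the differences stayed at -1.13 and -1.07 for Mcm5 (-1.10 with all arrays) and at -1.22 and -1.28 for Cdc6 (-1.25 with all arrays). With fewer arrays the adjusted p was then 0.0737 and 0.0879 for Mcm5 and 0.12 and 0.0939 for Cdc6. The call of PolA1 held without each array.

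Mitotic genes had 5 of 24 lower and none higher. The checkpoint kinase Bub1 was 8.57 and 8.48 against 9.31 and 9.34 (-0.80 ± 0.15, adjusted p = 0.0013). The Cdc25-type phosphatase twe, known for meiosis, was 4.49 and 4.23 against 6.21 and 5.99 (-1.74 ± 0.32, adjusted p = 0.00087). In both genes the arrays of a label lay close together. Without Rrp6-labelled array 2, 9 mitotic genes were lower, and without each other array 2 or 3 were. With the 18S covariate none was called lower, although the list's median was further from 0 (-0.45, against -0.26 without it).

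Genes of blood cells were called in both directions. All 9 hemocyte markers had a probe set. Their summed signal (log2 of the sum) was 14.10 to 14.72 on the Rrp6-labelled arrays and 13.83 to 13.99 on the Rrp47-labelled arrays. That sum rested mostly on Col4a1 and vkg (12.47 or more on each of the 4 arrays). Hml, srp and crq were also bright under both labels (9.66 or more). Other markers were dim, with Pxn and NimC1 at 4.15 to 5.72. Sr-CI was at the floor on both Rrp47-labelled arrays, against 4.63 and 3.90 under the Rrp6 label. Of 18 measured hemocyte genes 2 were higher (11.1%) and 3 lower (16.7%), which is near the 9.5% and 11% of all genes. Glt, the matrix protein glutactin, was 6.54 and 6.83 against 10.06 and 10.37, with GFP at 5.29 and 6.72 (-3.53 ± 0.33, adjusted p = 1.3e-06). eater, a phagocytic receptor, was 4.60 and 4.27 against 7.14 and 7.36 (-2.81 ± 0.44, adjusted p = 0.00022). SPARC, a collagen-binding matrix protein, was 12.30 and 12.44 against 13.56 and 13.61 (-1.22 ± 0.08, adjusted p = 3e-08). The Rrp6-labelled arrays of SPARC were below both GFP arrays (12.96 and 13.21) as well as below the Rrp47-labelled arrays.

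Hml, hemolectin, was higher under the Rrp6 label at 12.28 and 10.50 against 9.66 and 9.82 (1.65 ± 0.42, adjusted p = 0.01). Its arrays within the Rrp6 label were far apart, and the call was lost without array 1 (0.76, adjusted p = 0.17) and without Rrp47-labelled array 1 (1.57, adjusted p = 0.0723). Of 7 genes of crystal cells and lamellocytes, 3 were higher and PPO1 was lower. cher, the fly filamin, was 10.81 and 10.80 against 9.50 and 9.42 (1.34 ± 0.22, adjusted p = 0.00031), and mys, the beta integrin, differed by 1.22 ± 0.26 (adjusted p = 0.0033). With the 18S covariate no gene of this list was called higher, and cher and mys differed by 0.95 and 1.03 (adjusted p = 0.0506 and 0.123). In the deposited values they differed by 0.62 and 0.47 and were not called (adjusted p = 0.0704 and 0.196). In cells from bulk samples such as these, fewer cells of a type and less RNA per cell cannot be told apart.

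Marker lists of other cell types were summed in the same way, and none of their genes was at the floor on all 4 arrays. The 3 crystal cell markers summed to 6.36 to 6.91 under the Rrp6 label and 8.79 to 9.09 under the Rrp47 label. PPO1 is one of them, and the other prophenoloxidase PPO2 was 5.88 and 6.62 against 6.87 and 6.82, while the crystal cell regulator lz was 4.22 and 3.98 against 3.75 and 3.52. The 3 lamellocyte markers summed to 9.06 to 9.48 against 9.11 to 9.25, and the neuronal markers (5 of 6 with a probe set) to 8.22 to 8.89 against 7.92 to 8.14. Muscle markers (5 of 7) summed to 7.40 to 7.76 against 5.16 to 5.43. That sum rested mostly on Mf, a leading gene (6.86 and 7.57 against 4.59 and 3.11). The muscle gene up was also higher (3.97 and 4.09 against 2.59 and 3.20), while Prm, sls and Mlc2 did not separate the labels. Germline markers (5 of 6) summed to 6.53 to 6.79 against 7.91 to 8.14. That lower sum rested on bam, aub and AGO3, given below. In contrast, piwi was higher on both Rrp6-labelled arrays (5.57 and 5.83 against 5.36 and 5.53), and vas was lower by little (4.39 and 4.61 against 4.62 and 4.76). Fat body markers (3 of 6) summed to 6.24 to 6.84 against 5.73 to 5.82. This sum rested mostly on Lsp2 (5.89 and 6.36 against 5.41 and 4.83), while Fbp1 and Yp1 overlapped between labels. Among these lists and the hemocyte markers, the sums of all but the lamellocyte markers did not overlap between labels, beside 26.9% of all probe sets with both Rrp6-labelled arrays above and 27.8% with both below. Their part in the results was not tested.

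Single genes from these cell types moved by larger amounts than the sums. brp, an active zone protein of neurons, was 8.25 and 7.12 against 4.69 and 5.16, with GFP at 7.04 and 8.21 (2.76 ± 0.62, adjusted p = 0.0043). The call was lost without Rrp6-labelled array 1 (2.20) and with the 18S covariate (1.28, adjusted p = 0.356). Other neuronal markers did not follow brp, since elav (6.99 and 6.72 against 7.55 and 7.31) and nSyb (1.71 and 2.06 against 2.41 and 2.95) were lower on both Rrp6-labelled arrays, so the higher neuronal sum rested on brp. nau, a muscle transcription factor, was 5.05 and 5.59 against 8.56 and 8.44 (-3.17 ± 0.82, adjusted p = 0.011). Without Rrp6-labelled array 1 or Rrp47-labelled array 1 or 2 its difference stayed at -2.90, -3.12 and -3.23, while the adjusted p was 0.0636, 0.0688 and 0.057.

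Serine proteases and serpins had 10 of 24 measured genes lower under the Rrp6 label and 2 higher, against 11% and 9.5% of all genes. This count is not independent evidence, because CG33462, CG43336, CG4793, CG3117 and CG18557 entered the list after being seen in these data. Another 2 of the 10, SP1029 and SP1173, entered through a pattern on their symbols, and SP1029 is an aminopeptidase. The highest member of the list was Spn28Dc at 2.40, so none of the 14 genes furthest higher under the Rrp6 label was in it. Any protease among those 14 is therefore not counted here. The SP1029 call was lost without Rrp6-labelled array 1 (-0.50, adjusted p = 0.0876). Among members with a known role, grass, a clip-domain protease upstream of the Toll receptor, was 7.64 and 8.06 against 10.17 and 10.26, with GFP at 8.28 and 8.05. Its difference was -2.37 ± 0.22 (adjusted p = 8.7e-07). CG18557 was 7.58 and 8.71 against 11.54 and 11.59 (-3.42 ± 0.27, adjusted p = 1.9e-07).

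Serpins, which inhibit such proteases, were found in both directions. Spn31A was 7.25 and 6.35 against 9.63 and 9.34 (-2.69 ± 0.22, adjusted p = 3.6e-07). Spn28Dc was 8.05 and 7.41 against 4.99 and 5.67 (2.40 ± 0.49, adjusted p = 0.0023), with GFP at 8.58 and 8.35. In both serpins the arrays under the Rrp6 label were on the side of GFP. Without each array in turn 8 to 10 genes of the list were lower, and 8 with the 18S covariate.

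Antimicrobial peptides and immune signalling genes had 6 of 26 lower and 1 higher. Lower ones included both peptides and brakes of the Imd pathway. pirk, which restrains Imd signalling, was 8.19 and 9.11 against 10.23 and 10.12 (-1.52 ± 0.22, adjusted p = 0.00014), and PGRP-LF, another negative regulator, was 7.74 and 7.43 against 8.55 and 8.64 (-1.01 ± 0.17, adjusted p = 0.00054). The cecropin CecB was 8.45 and 8.95 against 9.54 and 9.62 (-0.87 ± 0.17, adjusted p = 0.0013). In each of these 3 the Rrp6-labelled arrays lay between GFP and the Rrp47-labelled arrays or overlapped GFP.

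The calls of 2 further peptides did not hold without single arrays, in different ways. Mtk, metchnikowin, was 6.77 and 8.83 against 9.18 and 9.35, and its call was lost without Rrp6-labelled array 1 (-0.43, adjusted p = 0.357), where most of the difference went. Without Rrp47-labelled array 1 or 2 its difference stayed at -1.55 and -1.38 against -1.46 (adjusted p = 0.0828 and 0.117). Drsl5 was 3.10 and 3.26 against 6.07 and 5.78 (-2.74 ± 0.79, adjusted p = 0.021). Without the same 3 arrays its difference stayed at -2.66, -2.60 and -2.89, while the adjusted p was 0.0795, 0.121 and 0.0793. Without Rrp6-labelled array 2, 7 genes of the list were lower, without array 1, 5 were, and without Rrp47-labelled array 1 or 2, 3 were. Of 8 genes linked to viruses and JAK-STAT signalling none was called by limma, and 2 had an unadjusted p under 0.05.

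Germline and piRNA pathway genes were lower under the Rrp6 label in 6 of 17 cases and higher in none. Not every member lay in that direction: spn-E was the furthest the other way, at 0.85, and was not called. AGO3, an Argonaute protein of the piRNA pathway, was at the floor of 1.69 and at 2.48 on the Rrp6-labelled arrays and at 5.61 and 6.45 on the Rrp47-labelled arrays. Both GFP arrays were at the floor, while the other depletions had means of 4.89 to 6.54. The difference was -3.94 ± 0.45 (adjusted p = 8.9e-06), and its size depends on the floor.

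bam, which drives germ cell differentiation, was 3.83 and 2.39 against 6.45 and 6.19 (-3.21 ± 0.43, adjusted p = 5.3e-05), and del, a factor of piRNA cluster transcription, was 6.09 and 5.27 against 8.82 and 8.86 (-3.16 ± 0.31, adjusted p = 1.9e-06). In both, GFP (3.69 and 2.98, and 4.99 and 5.95) lay with the Rrp6 label and the other depletions (4.83 to 6.66, and 7.86 to 9.53) around the Rrp47 label. For aub, another piRNA-pathway Argonaute, the arrays were 2.72 and 4.23 against 5.26 and 5.61 (-1.96 ± 0.55, adjusted p = 0.018). Its call was lost without Rrp6-labelled array 1 (-1.20, adjusted p = 0.198), and at -2.13 and -1.78 without Rrp47-labelled array 1 or 2 (adjusted p = 0.0614 and 0.117). The list's median of -0.39 became -0.24 and -0.66 without Rrp6-labelled array 1 and 2. With the 18S covariate 4 germline genes were lower. In the fit to the 4 arrays alone, with 2 residual degrees of freedom, 1 was lower. There del kept its call, while AGO3, bam and aub were not called.

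Detoxification enzymes made up the longest list with many calls: of 73 cytochrome P450 and glutathione S-transferase genes 17 were higher and 10 lower under the Rrp6 label. Besides Cyp6d2, its relative Cyp6d4 was 9.44 and 8.92 against 7.45 and 7.94 (1.48 ± 0.21, adjusted p = 0.00011). Among the transferases GstD6 was 6.26 and 6.71 against 3.93 and 4.65 (2.19 ± 0.43, adjusted p = 0.0017), and its neighbour GstD7 was 9.63 and 9.79 against 8.54 and 8.05 (1.41 ± 0.23, adjusted p = 0.00039). Related genes of the GstD cluster can share sequence, so signals of its probe sets may not be independent. GFP lay near the Rrp6 label for GstD7 (9.88 and 9.90) but not for Cyp6d4 (7.34 and 7.31).

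In the other direction Cyp12a4 was 7.74 and 7.52 against 9.98 and 9.65 (-2.19 ± 0.18, adjusted p = 3.8e-07), with GFP at 7.89 and 8.36. GstO3, an omega-class transferase, was 8.02 and 8.32 against 10.39 and 10.33 (-2.19 ± 0.26, adjusted p = 1.4e-05), with GFP below both at 7.53 and 6.47. Without each array in turn 11 to 16 of the list were higher and 9 to 12 lower.

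Genes of sugar metabolism went both ways, with 4 of 16 higher and 4 lower. Lower ones included Pepck1 and fbp, enzymes of gluconeogenesis, and the trehalose transporter Tret1-1. Pepck1 was 10.70 and 10.37 on the Rrp6-labelled arrays, 12.98 and 13.08 on the Rrp47-labelled arrays and 12.89 and 12.77 with GFP. The Rrp6-labelled arrays were thus apart from both other groups, and the difference was -2.50 ± 0.22 (adjusted p = 6.1e-07).

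fbp was 4.58 and 5.10 against 7.07 and 7.09, with GFP at 7.63 and 6.92 (-2.23 ± 0.26, adjusted p = 1.2e-05). Tret1-1 was 7.78 and 8.38 against 9.57 and 9.57 (-1.49 ± 0.33, adjusted p = 0.0037). The glycolytic enzymes Gapdh1 (0.50 ± 0.09, adjusted p = 0.00055) and Eno (0.37 ± 0.08, adjusted p = 0.0023) were higher by small amounts, and both changed sign in the deposited values, to -0.40 and -0.46.

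Heat shock and chaperone genes had 4 of 19 lower and 1 higher. The small heat shock protein Hsp27 was 10.04 and 11.44 against 12.60 and 12.54, with GFP at 12.91 and 11.18 (-1.83 ± 0.40, adjusted p = 0.0037). Hsp26 was 11.02 and 12.67 against 13.45 and 13.40 (-1.58 ± 0.40, adjusted p = 0.0099). In both, array 1 of the Rrp6 label was lower than array 2 by more than 1. The Hsp27 call was lost without array 1 (-1.13, adjusted p = 0.0675). That of Hsp26 was lost without Rrp6-labelled array 1 (-0.75, adjusted p = 0.167), and at an almost unmoved -1.56 and -1.60 without Rrp47-labelled array 1 or 2 (adjusted p = 0.0625 and 0.0537). Without any one of those 3 arrays the list had 1 lower gene. Its median was -0.01 without Rrp6-labelled array 1 and -0.20 and -0.21 without Rrp47-labelled array 1 and 2, against -0.20 with all arrays. With the 18S covariate none was lower and the median was 0.02.

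Of 25 noncoding RNAs and host genes of small nucleolar RNAs, 3 were higher and 4 lower. lncRNA:CR43785 was 3.70 and 5.64 against 8.35 and 8.53, with GFP at 2.96 and 4.83 (-3.77 ± 0.62, adjusted p = 0.00035). lncRNA:CR32027 was 8.54 and 8.44 against 9.25 and 9.20 (-0.74 ± 0.13, adjusted p = 0.0007). lncRNA:CR44036 was 4.24 and 3.79 against 6.62 and 5.90 (-2.25 ± 0.55, adjusted p = 0.0086), a call lost without Rrp47-labelled array 1 (-1.89, adjusted p = 0.0991). Among those higher under the Rrp6 label, lncRNA:CR42862 was 12.79 and 10.90 against 9.59 and 9.83 (2.14 ± 0.65, adjusted p = 0.029). It was not called without Rrp6-labelled array 1 (1.19, adjusted p = 0.295), nor, at 2.02 and 2.26, without Rrp47-labelled array 1 or 2 (adjusted p = 0.145 and 0.0959).

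The remaining lists are given as counts, beside 9.5% higher and 11% lower over all genes. Under the Rrp6 label 2 of 61 oxidative phosphorylation genes were higher and 2 lower, 2 of 37 cytosolic ribosomal protein genes were higher and 5 lower, and 4 of 29 proteasome genes were higher and 1 lower. Of 71 mitochondrial ribosomal protein genes 7 were lower and none higher. That count was 21 without Rrp6-labelled array 2, 2 without array 1, 1 without Rrp47-labelled array 1 and 2 without Rrp47-labelled array 2. The median of -0.18 became -0.50 and 0.11 without Rrp6-labelled array 2 and 1, and -0.14 and -0.21 without Rrp47-labelled array 1 and 2. Of 30 aminoacyl-tRNA synthetases 1 was higher and 1 lower. Apoptosis and DNA damage genes had 5 of 20 higher and 3 lower, endoplasmic reticulum stress genes 2 of 18 higher and 1 lower, and cuticle protein genes 2 of 26 higher and 2 lower. In the small RNA pathway 1 of 14 was higher and 1 lower, in the ecdysone response 1 of 10 was higher and none lower, and in the cytoskeleton 2 of 10 were higher and 1 lower.

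**Figure D4:**
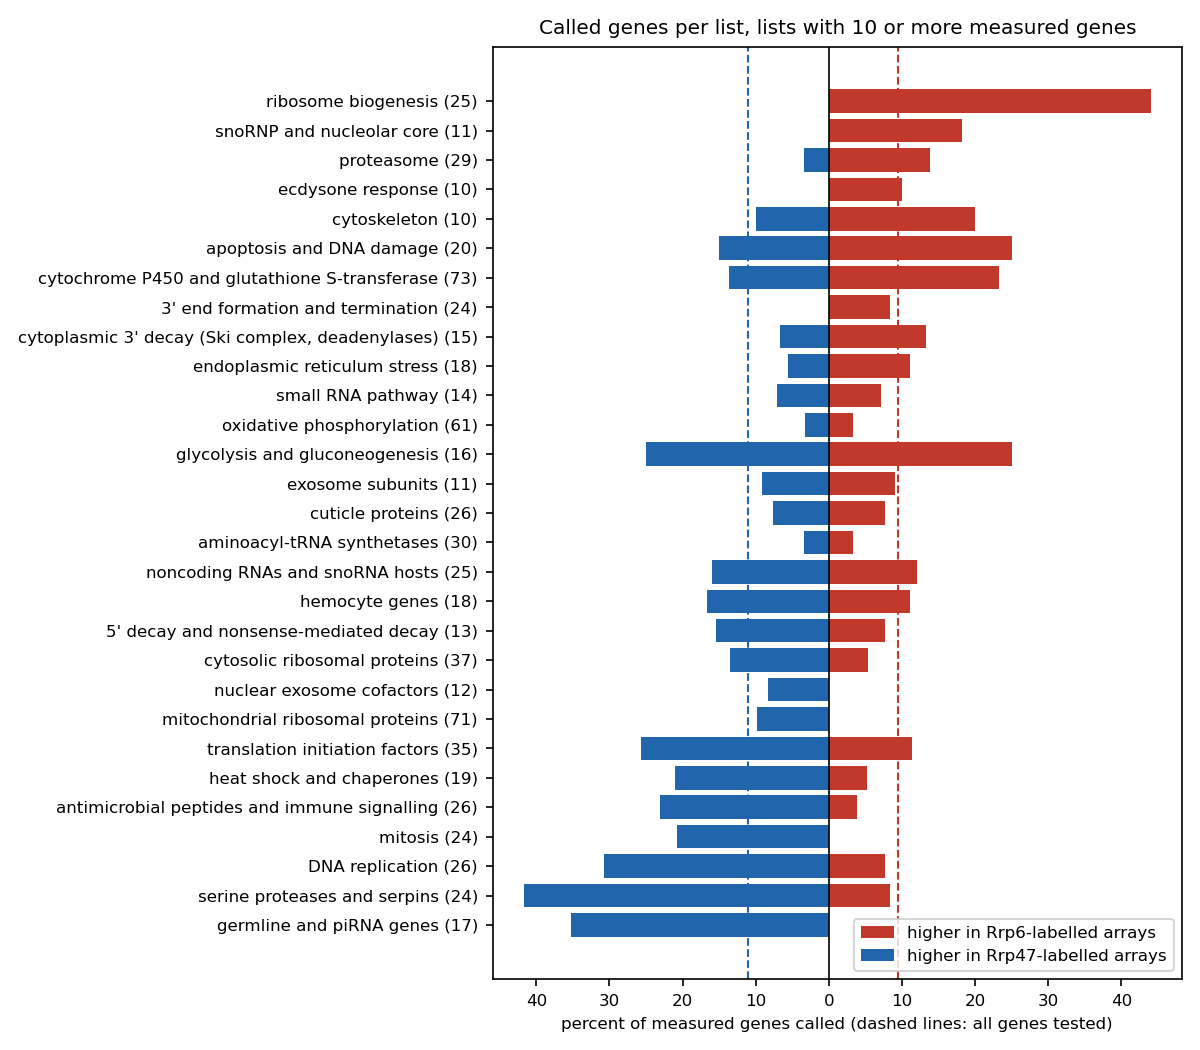
Percent of the measured genes of each list that were called higher in the Rrp6-labelled arrays (red bars to the right) or higher in the Rrp47-labelled arrays (blue bars to the left), for lists with at least 10 measured genes, whose number stands in brackets. Dashed lines mark all genes tested (9.5% and 11%). Ribosome biogenesis, with 11 of 25, has the longest red bar, and serine proteases and serpins, with 10 of 24, the longest blue one. Several of those 10 entered their list after being seen in these data, so the length of that blue bar is not independent evidence.

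Set among the other depletions, the 2 labels were placed differently. Of the 860 probe sets called higher under the Rrp6 label, the Rrp6-labelled mean alone lay outside the range of the 7 other depletion means for 351 (40.8%) and the Rrp47-labelled mean alone for 200 (23.3%). Of the 960 lower ones these were 467 (48.6%) and 164 (17.1%). Over all tested probe sets the shares were 23.2% and 22.7%. The Rrp6-labelled mean was the nearer of the 2 to GFP for 67.9% of the higher and 67.5% of the lower calls, beside 59.8% of all probe sets.

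Against the mean of the 7 other depletions, 2514 probe sets (26.8%) were called for the Rrp6 label, 1204 higher (12.8%) and 1310 lower (14%). For the Rrp47 label 1986 (21.2%) were called, 958 higher (10.2%) and 1028 lower (11%). That second count rested on both Rrp47-labelled arrays, since 14 were called without array 1 and 85 without array 2. The first was 1402 without Rrp6-labelled array 2 and 3078 without array 1. Among 36 pairs of depletions, Rrp6 against Rrp47 ranked 11 by the number of calls. The Rrp6 label had its fewest calls against Dis3, the other exonuclease (1146), and its most against Rrp4 (3421). These counts are not of equal power, since Rrp4 has 4 arrays and a median SE of 0.219 where the other pairs with Rrp6 have 0.253.

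The pair of Rrp47 and Csl4 labels had 3 calls, which put it at rank 35 of the 36. They were the Csl4 gene (8.55 and 8.40 on the Rrp47-labelled arrays, 10.56 and 11.26 on those labelled Csl4), the Rrp47 gene, which was higher by 1.89 ± 0.22 under the Rrp47 label, and CG11693 (3.41 and 3.63 against 6.35 and 6.20). Against Mtr3 the Rrp47 label had 378 calls and against Dis3 1192. The 2 Csl4-labelled arrays differed from each other by a median of 0.343, while the Rrp47 and Csl4 means differed by a median of 0.186. Array 2 of Csl4 correlated at 0.968 and 0.969 with the Rrp47-labelled arrays and at 0.955 with array 1 of Csl4. Array 1 of Csl4 correlated at 0.959 and 0.966 with the Rrp47-labelled arrays.

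**Figure D5:**
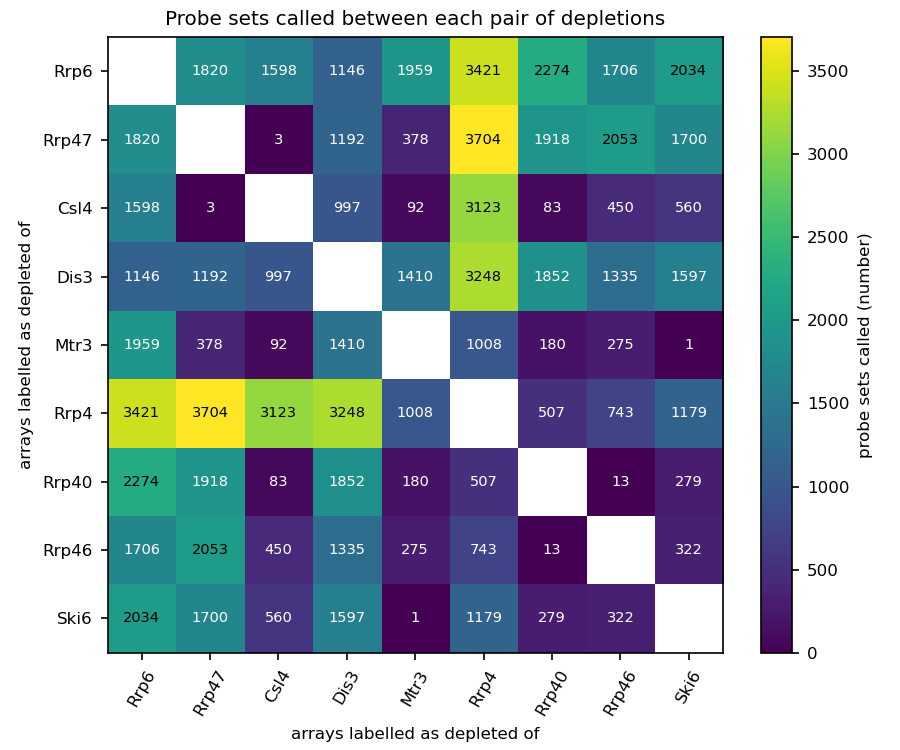
Number of probe sets called between each pair of the 9 depletion groups, as a heat map with the count in each cell. The pair of Rrp47 and Csl4 has 3 calls and that of Rrp6 and Rrp47 has 1820.

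Called genes that lie next to each other in the genome were looked up by gene order, without using their distances. There were 9 runs of 3 neighbours called in the same direction, and none was longer. Over all genes tested 9.5% were called higher and 11% lower, and the number of runs that such shares alone would give was not worked out. Of these, a run on chromosome 3R held Nepl19, Nepl20 and Nepl21, neprilysin-like metallopeptidases, which differed by -1.48, -1.07 and -2.40. Another held GstD6 and GstD7 with 1 more GstD gene. Both runs were chosen for naming after their values were seen.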

How the data were processed

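The authors deposited 1 intensity per probe set and array (linear, not log), and GCOS, software from Affymetrix, is the tool that the submitters' processing notes name. The GCOS version, its settings and a genome build are not given in the sources used here. Array depth has no count; precision is limited by the number of arrays.

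Trimmed means of the arrays differed by up to 3.97-fold, so all 22 arrays were quantile normalized, floored at the 10th percentile (signal 3.22) and log2-transformed. After removing 183 controls from 18952 probe sets, those whose mean over the arrays reached the median (4.67) entered the tests, 9385 in all. A linear model with 10 group means was fitted in limma 3.58.1 (R 4.3.3; lmFit, eBayes with trend; 12 residual degrees of freedom). Tests were two-sided, with p-values adjusted over all tested probe sets by Benjamini-Hochberg, and every adjusted p in the text is from limma. Gene names came from platform and RefSeq tables: 7825 tested probe sets had 1 symbol, for 7222 genes. A gene in a list stands for its brightest tested probe set.

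The members and the 35 lists were chosen with earlier results of these data known. Named genes were the 14 furthest in each direction with 1 symbol, a call and no overlap of arrays, the targeted and other exosome genes, the gene with the largest difference within each label, and called members of the lists, of which a part is given. Replicate numbers were not taken to pair arrays, because the labels name no shared batch and only 2 numbers are shared. Alternatives covered normalization, filter, floor, arrays in the fit, variance model, array weights, the 18S signal as covariate and each array left out in turn; 2 (fewer groups in the fit, and no GFP arrays) were chosen after seeing the data. Sequences were not used here.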

Additional observations from a re-analysis of the deposited data

Results flagged for a closer look

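The 18S ribosomal RNA control probe sets lie outside the comparison of genes and carried signal above the GFP arrays under both labels. Their mean log2 signal was 13.35 over the Rrp6-labelled arrays and 10.51 over the Rrp47-labelled arrays, while the higher GFP array was at 9.90. High values were not particular to these labels. The group means were 13.62 for Dis3, 13.57 for Ski6, 12.85 for Mtr3 and 11.23 for Csl4, and lower for Rrp46 (9.52), Rrp40 (7.70) and Rrp4 (7.61). Both Rrp6-labelled arrays (13.17 and 13.53) were above both Rrp47-labelled arrays (10.85 and 10.17). The part of this signal in the gene differences was not tested beyond its use as a covariate.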

How the results depend on the processing

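The count of 1820 calls between the labels was 5084 in the deposited values, 331 with the 4 arrays alone (2 residual degrees of freedom), 3372 without array 2 of Csl4, Dis3 and Rrp6 together, 932 with array weights, 598 with the 18S covariate and 586 with 5 groups only. It ran from 967 to 2261 when each of the 4 arrays was left out; a group then left with 1 array is assumed to vary like the others. Centring, other filters and floors, other variance models, and fits without Rrp4 or GFP arrays gave 1441 to 1950. The 181 calls among listed genes were 499, 47, 340, 114, 67 and 72 under the same 6 settings in that order, and 94 to 243 with each array left out. For the Rrp6 label against the 7 others (2514) the counts were 6417 in the deposited values, 666 with array weights, 1593 with the 18S covariate and 1402 to 3078 with an array left out. For the Rrp47 label (1986) they were 1118 with no filter, 608 without the Rrp4 arrays, 4208 without the 3 arrays, 4281 with weights and 14 to 85 with an array left out. The replicate block gave 1554 calls between the labels, 1245 for Rrp47 against the others and 2200 for Rrp6; it is not a pairing from the design, and residuals of same-numbered arrays of the 2 labels correlated at -0.08. Same-numbered residuals of other groups did correlate: 0.41 for Rrp6 with Dis3, 0.31 for Rrp6 with Csl4, 0.40 for Csl4 with Dis3 and -0.31 for Rrp6 with Mtr3. Array 2 of the first 3 groups is what the setting without 3 arrays leaves out, and the cause of the shared pattern was not tested.

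The targeted Rrp6 gene was called in the deposited values (-1.31) and without the 3 arrays (-1.03), and ranged from -1.03 to -0.11 with an array left out. The targeted Rrp47 gene kept its call throughout, at -2.72 to -1.71 with an array left out. Signs changed in the deposited values for Rrp4 (-0.22), Rrp46 (-0.37), Csl4 (-0.55), Rrp45 (-0.48), Rrp42 (-0.68), Ski6 (-0.39), Mtr3 (-0.48), Dis3 (-0.67), pcm (-0.28), Nop60B (-0.016), Eno (-0.46) and Gapdh1 (-0.40). With centring they changed for Rrp42 (-0.12) and Dis3 (-0.11), and with the 18S covariate for Mtr3 (-0.21). Without the 3 arrays, and equally without Rrp6-labelled array 2 alone, they changed for Csl4 (-0.22), Rrp42 (-0.36), Ski6 (-0.12), Mtr3 (-0.055), Dis3 (-0.30) and CrebB (0.74). Without Rrp6-labelled array 1 these 6 were 0.58, 0.48, 0.77, 0.54, 0.42 and -3.53. Without Rrp47-labelled array 1 Dis3 was -0.013, and without array 2 Rrp42 was -0.035. The causes were not tested. Of the 28 leading genes 20, and of 68 genes named from lists and neighbour runs 19, were called under all alternatives that gave them a value.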
